A study of Mus musculus with 4 samples.

Results

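The 10 genes described here, Glul, Slc1a2, Oat, Rgn, Gulo, Aldh1a1, Lect2, Axin2, Lgr5 and Tbx3, are known from the liver lobule as genes of pericentral hepatocytes that do not encode cytochromes P450. They were taken by symbol from the probe sets of the array, with the brightest probe set over the 4 arrays standing for each gene, and are 10 of 18441 genes kept after removal of dim ones. All 10 passed that filter. The Glul probe set is annotated to the microRNA gene Mir8114 as well and was kept on that understanding. Expression was measured in total RNA of mouse liver on 4 arrays, 1 for each combination of genotype and time. The wildtype mice carried a floxed Yap1 gene and the YAP-KO mice lacked YAP, the coactivator of transcription that Hippo signalling restrains. The livers at 0 h came from fasted male mice that had received no acetaminophen. Those at 24 h came from male mice that had been fasted, were given 300 mg/kg acetaminophen by intraperitoneal injection and were sampled 24 h later. Each array held RNA pooled from 3 mice. The deleted exons, the Cre driver, the cells that lost YAP and the age of the mice are not among the labels. No mice sampled at 24 h without acetaminophen were analysed here, so the drug, the elapsed time and feeding cannot be told apart in any difference between 24 h and 0 h.

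Hepatocytes near the central vein of the lobule receive Wnt ligands and R-spondins from the endothelium of that vein, and beta-catenin signalling in them maintains a set of genes that hepatocytes near the portal tract express little. The last cell layers around the vein clear ammonia by making glutamine. Pericentral hepatocytes are also where acetaminophen is mostly converted to its reactive metabolite, and acetaminophen necrosis is typically pericentral.

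Values are on a log2 scale, where 1 unit is a factor of 2, and a difference of 2-fold or more, that is 1 log2 unit, was counted. Each group is a single array, so replicate error is unknown, no difference between arrays has a p-value, and the order of the levels on the arrays cannot be set against a spread. Levels of different probe sets were not set against each other, except to say where a signal sits among all probe sets of its array. In a liver lysate, fewer cells of a type and less RNA per cell cannot be told apart, and the position of a cell in the lobule is not measured. The liver-defining genes Alb, Ttr, Apoa1 and Apob were at the top of the scale on all 4 arrays, at 19.83 to 19.93. Yap1 had a YAP-KO minus wildtype difference of -1.23 at 0 h (6.31 against 7.54) and -2.23 at 24 h (6.01 against 8.24). The median of all probe sets was 4.47 and 4.46 on the 0 h arrays of wildtype and YAP-KO, and 4.32 and 4.36 on the 24 h arrays. Setting these medians equal would add 0.15 to every 24 h minus 0 h difference in wildtype and 0.10 in YAP-KO, and differences are given below without that shift.

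In wildtype liver, 8 of the 10 pericentral genes were 2-fold or more lower 24 h after acetaminophen and 0 were higher, where 5.89% of all kept genes were lower and 12.7% higher by that much. Their median difference was -2.46, against 0.07 over all kept genes. In YAP-KO liver 6 of the 10 were lower and 0 higher, against 2.22% and 4.73% of all genes, with a median of -1.05 against 0.07. With array medians set equal the YAP-KO count was 4, as Tbx3 came to -0.99 and Aldh1a1 to -0.92. The members were chosen with earlier results of these data known, so their counts beside the shares of all genes are description and no test. Among the 8 of wildtype, Slc1a2 (4.32) and Lgr5 (4.29) had 24 h values not above the level used to drop dim genes. Glul, Slc1a2, Oat, Lgr5, Tbx3 and Aldh1a1 were at least 2-fold lower in both genotypes, whereas Rgn and Gulo were so in wildtype alone, and Axin2 and Lect2 in neither. Lect2 was the only member with opposite signs in the genotypes.

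**Figure D1:**
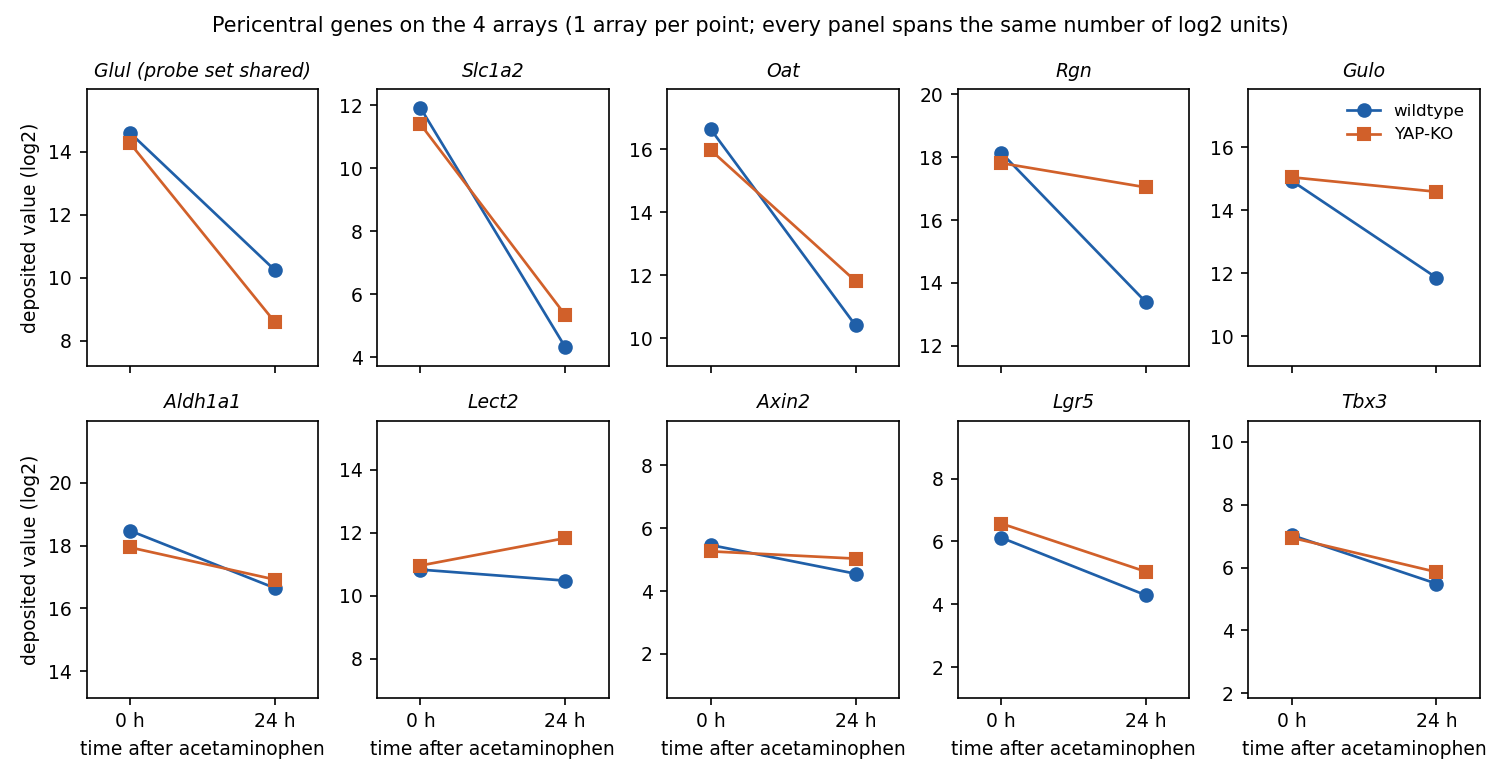
Deposited log2 value of each of the 10 pericentral genes at 0 h and 24 h in wildtype (blue circles) and YAP-KO (orange squares) liver, 1 array of pooled RNA per point, with lines joining the arrays of a genotype. Every panel spans the same number of log2 units, so slopes can be compared: Slc1a2, Oat and Glul are at least 4.16 units lower at 24 h in both genotypes, Rgn and Gulo are far lower in wildtype only, and the lines of Lect2 part.

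Glul encodes glutamine synthetase, which joins ammonia to glutamate in the hepatocytes next to the central vein. Its probe set read 14.60 at 0 h and 10.24 at 24 h in wildtype, and 14.27 and 8.59 in YAP-KO. The 24 h arrays were therefore both far below the 0 h arrays, and the YAP-KO array was the lowest of the 4. The difference between times was -4.36 in wildtype, a factor of 20.5, and -5.68 in YAP-KO, a factor of 51.3, which ranked 4 from the lowest of all 18441 genes in YAP-KO. At 24 h Glul was the only member with a YAP-KO value below that of wildtype, a difference of -1.65. In GRCm38.p6 coordinates the gene spans chr1:153899929-153909723. Mir8114, at chr1:153899926-153900036, overlaps its start, so the reading cannot be assigned to either transcript from the annotation. The glutamine synthetase pseudogene Glns-ps1, on chromosome 11, read 15.18 at 0 h and 10.29 at 24 h in wildtype, and 14.76 and 8.54 in YAP-KO. Its 24 h differences, -4.89 and -6.22, go the same way as those of Glul. Whether the probe sets cross-hybridise was not tested, so the pseudogene is not a separate observation.

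Slc1a2 (chr2:102658239-102790784) encodes GLT-1, a glutamate transporter that in liver sits on the same perivenous hepatocytes. Its own probe set read 11.92 at 0 h and 4.32 at 24 h in wildtype, and 11.40 and 5.34 in YAP-KO. Both 24 h values lie near the dim end: 4.32 is the median of all probe sets on that array, with 49.9% of them below it, and 67.9% lay below 5.34 on the YAP-KO array. The difference was -7.60 in wildtype and -6.06 in YAP-KO. The wildtype value at 24 h was not above the level used to drop dim genes, so Slc1a2 was kept through its 0 h arrays. It was not shown to exceed background, and the differences are sizes between deposited values, from which no exact fold can be read. A second probe set, annotated to Slc1a2 together with Gm13872, a long noncoding RNA gene at chr2:102743651-102746760 inside the Slc1a2 span, read 4.39 at 0 h and 3.90 at 24 h in wildtype, and 4.16 and 3.80 in YAP-KO. It was dim on all 4 arrays and its differences were -0.49 and -0.36. The mean of both probe sets gave -4.04 in wildtype and -3.21 in YAP-KO.

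Oat (chr7:132557475-132576398) encodes ornithine aminotransferase, the mitochondrial enzyme that passes the amino group of ornithine to 2-oxoglutarate and so feeds glutamate synthesis. It read 16.63 at 0 h and 10.40 at 24 h in wildtype, and 15.97 and 11.81 in YAP-KO. The difference was -6.23 in wildtype, a factor of 75.1, and -4.16 in YAP-KO, a factor of 17.9, and ranked 7 from the lowest in each genotype. Unlike the Slc1a2 values, the 24 h values of Oat were well inside the measured range, with 93.1% and 95.7% of probe sets below them. Against the 0 h array of the other genotype the differences were -5.57 and -4.82. Glutamine synthetase, the glutamate transporter and ornithine aminotransferase were thus the members with the most negative 24 h differences in YAP-KO, and Rgn stood between Oat and Glul in wildtype.

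The wider list of glutamine, glutamate and ornithine metabolism held 22 genes, of which 15 were kept, these 3 members included. In wildtype 8 were 2-fold or more lower and 1 higher, with a median of -1.30, and in YAP-KO 5 were lower and 1 higher, with a median of -0.49. The shares of all kept genes were 5.89% lower and 12.7% higher in wildtype, and 2.22% and 4.73% in YAP-KO. Prodh, encoding proline dehydrogenase, was lower in both (-3.28 and -1.97), and so was Aldh4a1, the next enzyme of proline catabolism (-2.18 and -0.83, the latter under 2-fold). The system N glutamine transporter gene Slc38a3 was -1.30 in wildtype and 0.04 in YAP-KO. Odc1, encoding ornithine decarboxylase of polyamine synthesis, went against the list at 3.82 and 1.94. Among the transporters of the Slc1 family, Slc1a4 (0.74 and 0.56) and Slc1a5 (0.52 and 0.09) were above 0 in both genotypes while Slc1a2 was low. The Slc1a4 and Slc1a5 differences were under 2-fold, at low levels of 5.32 to 6.06 and 4.99 to 5.51 over the arrays. The probe set for Rhbg, the pericentral ammonia transporter gene, shared with Tsacc, read 4.98 at 0 h and 4.43 at 24 h in wildtype, and 5.09 and 4.73 in YAP-KO, and was dim throughout.

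Rgn and Gulo both encode enzymes of vitamin C synthesis, which mouse hepatocytes carry out: regucalcin acts as the gluconolactonase, and L-gulonolactone oxidase catalyses the last step. Rgn (chrX:20549766-20562089) read 18.14 at 0 h and 13.39 at 24 h in wildtype, and 17.81 and 17.04 in YAP-KO. Gulo (chr14:65986786-66009254) read 14.94 at 0 h and 11.86 at 24 h in wildtype, and 15.05 and 14.59 in YAP-KO. For both genes the wildtype 24 h array stood alone below the other 3. The wildtype differences were -4.75 for Rgn, a factor of 26.9, and -3.08 for Gulo, a factor of 8.46. In YAP-KO they were -0.77 and -0.46, under 2-fold, although against the wildtype 0 h array Rgn was at -1.10. At 24 h YAP-KO exceeded wildtype by 3.65 for Rgn and 2.73 for Gulo, which ranked 6 and 29 from the highest of all kept genes.

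Of 9 genes of ascorbate synthesis and transport 8 were kept, Rgn and Gulo included, with 3 lower and 1 higher by 2-fold in wildtype (median -0.56) and 1 lower and 0 higher in YAP-KO (median -0.11). Among all kept genes, 5.89% were lower and 12.7% higher in wildtype, and 2.22% and 4.73% in YAP-KO. Slc23a1, encoding an ascorbate transporter, was the third lower gene of wildtype at -1.47 in wildtype and 0.34 in YAP-KO. Ugdh, encoding the dehydrogenase that makes UDP-glucuronate, the precursor of both ascorbate and acetaminophen glucuronide, was 1.17 in wildtype and -1.25 in YAP-KO. It read 11.26 at 0 h and 12.43 at 24 h in wildtype, and 12.43 and 11.18 in YAP-KO, so the 0 h arrays already differed by 1.17. The second ascorbate transporter gene, Slc23a2, was 0.86 and 0.39.

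Aldh1a1 (chr19:20492583-20643463) encodes a retinaldehyde dehydrogenase. It read 18.47 at 0 h and 16.65 at 24 h in wildtype, and 17.94 and 16.92 in YAP-KO, so both 24 h arrays were below both 0 h arrays. The differences were -1.82 and -1.02, and the YAP-KO difference lay just past 2-fold. Its neighbour on the chromosome and close paralog Aldh1a7 read 16.13 at 0 h and 14.34 at 24 h in wildtype, and 15.74 and 14.85 in YAP-KO, with differences of -1.79 and -0.89. The resemblance extends to sequence upstream of their starts. Over the 100 bases before the second RefSeq start listed for Aldh1a1 (chr19:20601868-20601967, plus strand) and before that of Aldh1a7 (chr19:20727557-20727656, minus strand), 94 bases were identical, and the other 6 are in capitals (RefSeq, GRCm38.p6).
Aldh1a1: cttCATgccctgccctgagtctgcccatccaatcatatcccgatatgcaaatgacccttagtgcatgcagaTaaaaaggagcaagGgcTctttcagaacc
Aldh1a7: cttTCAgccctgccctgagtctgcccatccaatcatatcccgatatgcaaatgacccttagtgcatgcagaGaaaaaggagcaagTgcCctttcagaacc
Whether the probe sets separate the transcripts was not tested, so their near-equal differences may not be separate observations.

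Of 18 genes of retinoid metabolism 16 were kept, Aldh1a1 and Aldh1a7 included. In wildtype 7 were 2-fold or more lower and 0 higher, with a median of -0.70, and in YAP-KO 2 were lower and 0 higher, with a median of -0.09. For all kept genes the shares were 5.89% and 12.7% in wildtype, and 2.22% and 4.73% in YAP-KO. Dhrs3, encoding a retinaldehyde reductase, was at -3.15 in wildtype and -0.49 in YAP-KO. Adh4, of the same list, was -2.11 in wildtype but went against the list in YAP-KO at 0.92. Rdh16, a retinol dehydrogenase gene, was low in both (-1.98 and -1.55). Cyp26a1, encoding the retinoic acid hydroxylase, was -1.92 and -0.06, but the genotypes already differed by -1.17 at 0 h (5.46 in YAP-KO against 6.63).

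Lect2 (chr13:56529734-56548559) encodes a protein secreted by hepatocytes. It read 10.83 at 0 h and 10.48 at 24 h in wildtype, and 10.96 and 11.83 in YAP-KO. The YAP-KO 24 h array was thus the highest of the 4 and the wildtype 24 h array the lowest. The differences were -0.35 in wildtype and 0.87 in YAP-KO, neither of them 2-fold, and the difference between the genotypes at 24 h was 1.35. Measured from the wildtype 0 h array, the YAP-KO 24 h array was 2-fold higher.

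Axin2, Lgr5 and Tbx3 are direct targets of beta-catenin signalling: Axin2 encodes a scaffold of the complex that degrades beta-catenin, Lgr5 an R-spondin receptor and Tbx3 a T-box transcription factor. Tbx3 (chr5:119670534-119684724) read 7.03 at 0 h and 5.49 at 24 h in wildtype, and 6.95 and 5.86 in YAP-KO, a difference of -1.54 and -1.09. Lgr5 (chr10:115450314-115587780) read 6.12 at 0 h and 4.29 at 24 h in wildtype, and 6.57 and 5.04 in YAP-KO, a difference of -1.83 and -1.53. For both genes the 24 h arrays lay below the 0 h arrays in both genotypes, wildtype lowest. Axin2 (chr11:108917828-108950783) read 5.46 at 0 h and 4.55 at 24 h in wildtype, and 5.26 and 5.03 in YAP-KO, a difference of -0.91 and -0.23. The order was the same as for Tbx3 but the steps were under 2-fold. Lgr5 and Axin2 ended near the middle of all probe sets: 49.0% of probe sets lay below Lgr5 and 55.2% below Axin2 on the wildtype 24 h array. The Lgr5 value there, 4.29, was under the level used to drop dim genes, so Lgr5 too was kept through its other arrays. No exact fold can be read from its wildtype difference.

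In the lists of Wnt and beta-catenin genes most others differed by less than 2-fold, as did most of all kept genes. Over all kept genes, 5.89% were lower and 12.7% higher by that much in wildtype, and 2.22% and 4.73% in YAP-KO. Of 18 ligands, R-spondins and secreted inhibitors 11 were kept, the other 7 being too dim, with medians of -0.13 in wildtype and -0.24 in YAP-KO. The ligand genes of the central vein endothelium were near the dim end: Wnt2 was at 4.04 to 4.58 on the 4 arrays, with differences of -0.13 and -0.54, and Wnt9b had differences of -0.18 and -0.57. Rspo3, the R-spondin gene of that endothelium, was higher at 24 h in wildtype, from 7.48 to 8.74, a difference of 1.26, against 7.79 to 7.66 in YAP-KO, a difference of -0.13. The inhibitor gene Frzb was higher in both (1.72 and 0.97, the latter under 2-fold), and Notum, encoding a Wnt deacylase that is itself a pathway target, was -1.15 and -0.28.

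Among the receptors and their regulators 12 of 15 genes were kept, Lgr5 included, and 2 were 2-fold or more lower in wildtype and 1 in YAP-KO. Lgr4, the R-spondin receptor gene that hepatocytes express widely, was -1.24 and -0.57, the coreceptor gene Lrp6 was -0.63 and -0.60, and Znrf3, encoding the ubiquitin ligase that removes Wnt receptors, was -0.74 and -0.23. The Frizzled receptor gene Fzd6 went the other way in wildtype, at 0.82 and -0.03. Of 21 signal transduction genes 16 were kept, with medians of 0.27 and 0.03. The corepressor gene Tle3 was 2-fold higher in wildtype (1.17, against -0.15 in YAP-KO), and 0 were 2-fold lower in either genotype, including Apc (0.27 and 0.08) and the transcription factor gene Tcf7l2 (0.28 and 0.15). Besides Axin2, the coactivator gene Bcl9l went against the list in wildtype, at -0.65 and -0.08. The probe set of Ctnnb1, the beta-catenin gene, shared with Mir7090, read 11.35 at 0 h and 11.68 at 24 h in wildtype, and 11.36 and 11.85 in YAP-KO. Within a list of 15 beta-catenin targets 9 were kept, Axin2, Lgr5 and Tbx3 among them. The members Glul, Slc1a2 and Oat were not in this list, and its medians depend on that choice. In wildtype 3 of the 9 were 2-fold or more lower and 1 higher, with a median of -0.74, and in YAP-KO 2 were lower and 0 higher, with a median of -0.28. Of those that are not members, Notum was the third lower gene of wildtype, Nkd1 was -0.01 and -0.15, Tnfrsf19 was -0.30 and -0.03, and Myc was 3.77 and -0.63.

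**Figure D2:**
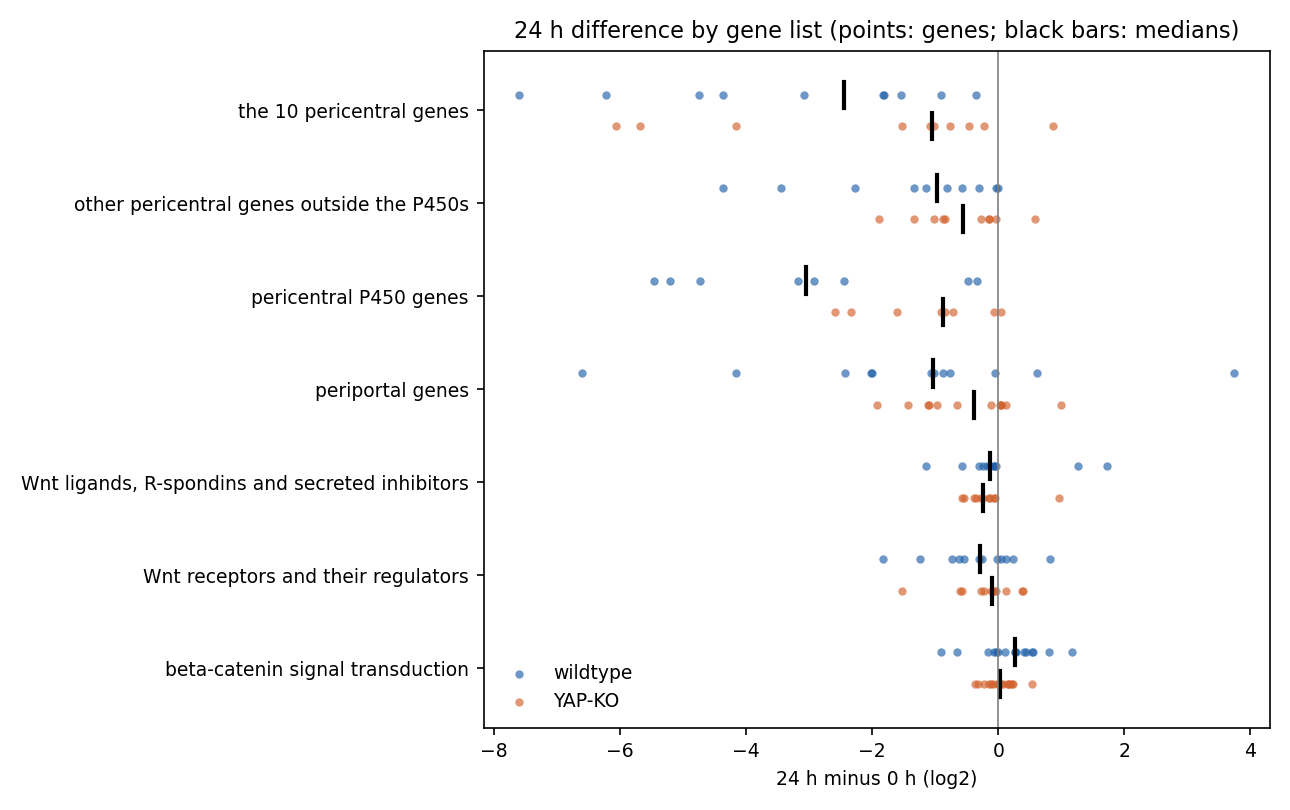
Difference between 24 h and 0 h in log2 units for the genes of 7 lists in wildtype (blue) and YAP-KO (orange), 1 point per gene, with black bars at the medians. The medians of the 10 pericentral genes lie at -2.46 and -1.05, those of the Wnt ligand, receptor and signal transduction lists between -0.29 and 0.27.

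The sequence before the transcription starts of the members was searched for the TCF/LEF core motif, written as CTTTGAT or CTTTGAA, on both strands. The spellings exclude each other at a given place on a strand, and matches on opposite strands may overlap. RefSeq promoter windows were on hand for Glul, Slc1a2, Oat, Lect2, Axin2 and Aldh1a1, the last with 2 starts, and the 250 bases before each start were read (GRCm38.p6). A match was found in 3 of these 7 windows, 1 each of Slc1a2, Lect2 and Aldh1a1, and in 7.48% of all 32851 windows of that length. The 3 windows are shown, 5′ to 3′ along the gene, because their genes behaved differently on the arrays, with the matches in capitals. They lie at chr2:102706188-102706437 (plus strand), chr13:56548539-56548788 (minus strand) and chr19:20492333-20492582 (plus strand).
Slc1a2: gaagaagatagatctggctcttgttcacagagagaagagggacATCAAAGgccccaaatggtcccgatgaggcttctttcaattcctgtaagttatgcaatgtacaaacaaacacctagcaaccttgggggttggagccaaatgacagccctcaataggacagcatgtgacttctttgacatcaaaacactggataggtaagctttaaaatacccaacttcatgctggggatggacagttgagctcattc
Lect2: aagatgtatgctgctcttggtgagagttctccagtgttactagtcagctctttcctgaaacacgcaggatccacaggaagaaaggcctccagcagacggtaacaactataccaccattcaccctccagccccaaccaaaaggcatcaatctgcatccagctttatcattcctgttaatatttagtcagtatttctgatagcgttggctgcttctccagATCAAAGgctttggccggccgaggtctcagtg
Aldh1a1: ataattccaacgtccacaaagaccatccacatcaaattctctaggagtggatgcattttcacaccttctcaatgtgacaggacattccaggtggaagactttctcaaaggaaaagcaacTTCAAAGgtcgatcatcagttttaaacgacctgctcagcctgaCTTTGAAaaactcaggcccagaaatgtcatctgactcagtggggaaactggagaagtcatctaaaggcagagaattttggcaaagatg
The RefSeq starts used for Slc1a2, Lect2 and Axin2 lie inside the spans given for those genes, as does the second start of Aldh1a1. The match begins 207 bases before the start in Slc1a2 and 32 bases before it in Lect2, and the matches in Aldh1a1 begin 131 and 88 bases before. The Slc1a2 gene was lower at 24 h in both genotypes and Aldh1a1 was so by less. Lect2 differed by less than 2-fold in each, at -0.35 in wildtype and 0.87 in YAP-KO. Whether a match bears on the 24 h difference was not tested. A match of letters is no evidence of a bound site. The absence of these letters before Glul, Oat and Axin2 says nothing of sites elsewhere.

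Before acetaminophen, 0 of the 10 members were 2-fold lower or higher in YAP-KO, against 0.878% and 1.01% of all genes. With shares that small, the count does not set the members apart from other genes. The differences ran from -0.66 for Oat to 0.45 for Lgr5, with 7 below 0 and 3 above. Their median was -0.27, against -0.03 over all genes. Aldh1a1 (-0.53) and Slc1a2 (-0.52) were near the Oat value, and Gulo (0.11) and Tbx3 (-0.08) were close to 0.

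At 24 h, 5 of the 10 were 2-fold or more higher in YAP-KO than in wildtype and 1, Glul, was lower, against 3.24% and 5.73% of all genes. The median was 0.89, against -0.02 over all genes. Rgn (3.65), Gulo (2.73), Oat (1.41), Lect2 (1.35) and Slc1a2 (1.02) were the 5 higher genes. The Slc1a2 difference is taken against the wildtype value at the array median, which was not shown to exceed background. It was 0.98 after quantile normalization or with array medians set equal, and 0.46 with the mean of its probe sets, which leaves 4. The Wnt targets Lgr5 (0.75), Axin2 (0.48) and Tbx3 (0.37) and Aldh1a1 (0.27) were above 0 by less than 2-fold. For the difference between the 24 h responses, which uses all 4 arrays, 5 genes were 2-fold or more in the direction of YAP-KO and 1 in that of wildtype, against 5.66% and 7.52% of all genes. Its values ran from -1.32 for Glul to 3.98 for Rgn, with Lgr5 at 0.30. These differences were not tested.

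**Figure D3:**
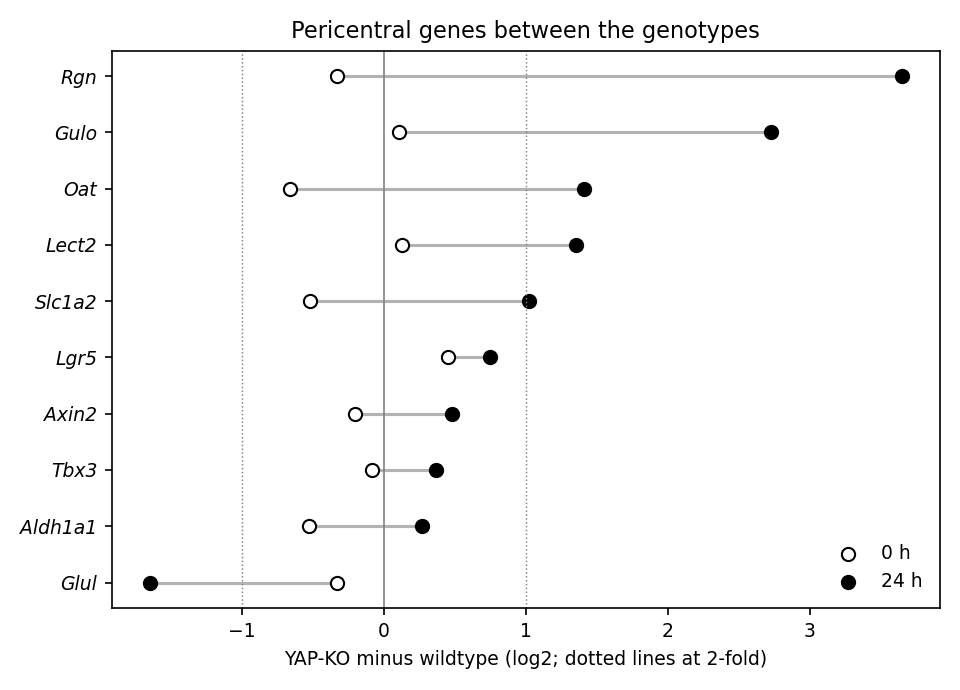
YAP-KO minus wildtype in log2 units for each pericentral gene at 0 h (open circles) and 24 h (filled circles), 1 array per group, with dotted lines at 2-fold. All open circles lie between -0.66 and 0.45, and the filled circles spread from -1.65 (Glul) to 3.65 (Rgn).

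**Figure D4:**
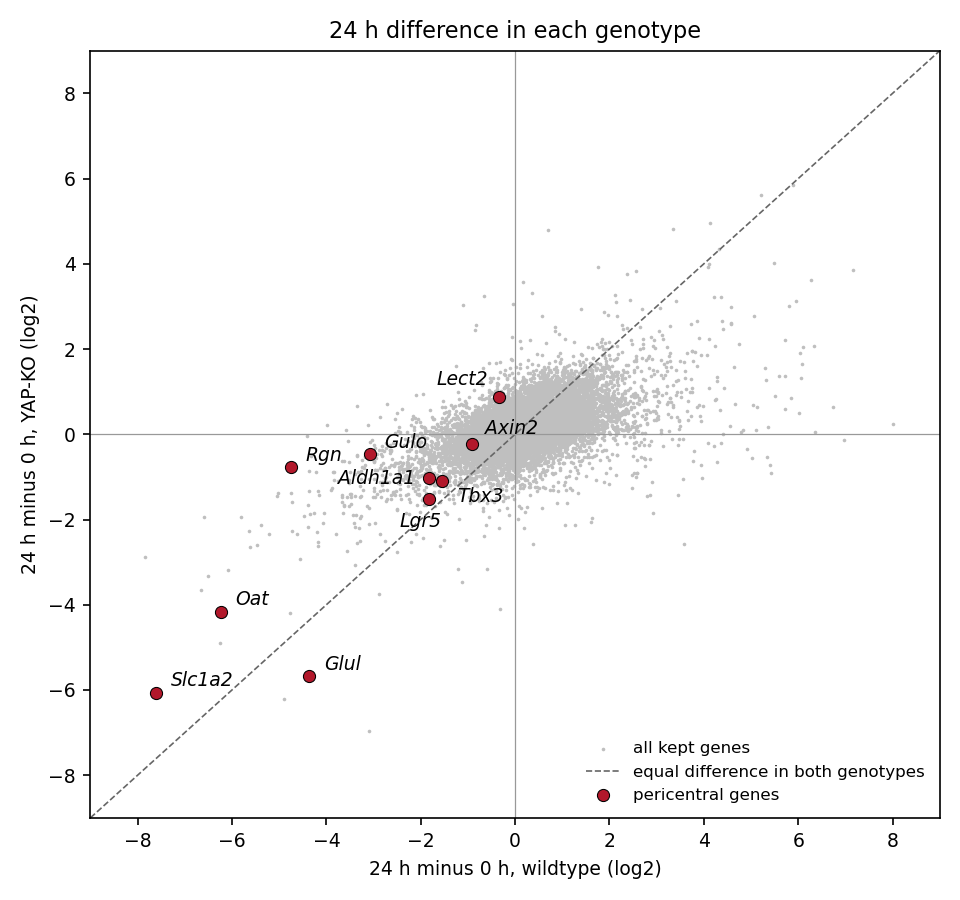
Difference between 24 h and 0 h in wildtype (horizontal axis) and YAP-KO (vertical axis), both in log2 units, for the 18441 kept genes (grey) and the 10 pericentral genes (red), with a dashed line where both are equal. Glul lies below the line, and the other 9 members above it, with Rgn and Gulo far from it.

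The pericentral P450 genes, the zone's best known members, were compared as a list of 10 of which 8 were kept and 7 were unsaturated on all arrays. Over these 7 the median was -3.18 in wildtype and -0.91 in YAP-KO, and YAP-KO exceeded wildtype at 24 h by 2.15. Their lowest YAP-KO difference was that of Cyp7a1, whose enzyme begins the conversion of cholesterol to bile acids, at -2.59, followed by Cyp1a2 at -2.33, while Glul, Slc1a2 and Oat were at -4.16 or lower. A further 10 pericentral genes outside the P450s had medians of -0.98 and -0.56, led by the uptake transporter gene Slco1b2 (-4.37 and -1.34) and the glutathione transferase gene Gstm3 (-3.44 and -1.89). Low 24 h values were not limited to pericentral genes. Over all kept genes, 5.89% were 2-fold or more lower and 12.7% higher in wildtype, and 2.22% and 4.73% in YAP-KO. Of 12 periportal genes kept 7 were 2-fold or more lower in wildtype and 1 higher, with a median of -1.04, and in YAP-KO 4 were lower and 0 higher, with a median of -0.38. G6pc, the glucose-6-phosphatase gene, and Hal, encoding histidine ammonia-lyase, were among them at -6.60 and -4.16 in wildtype and -1.93 and -1.43 in YAP-KO. No test of the difference between these lists was made.

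Markers of other cells differed between the times as well. Of 11 hepatocyte markers, 5 were unsaturated on every array, with medians of -2.04 in wildtype and -0.66 in YAP-KO. The liver transcription factor genes Hnf4a (-0.90 and -1.45) and Cebpa (-2.43 and -1.28) and the tyrosine catabolism gene Hpd (-2.04 and -0.66) were among them. Neutrophil markers had medians of 2.26 and 0.60, with 5 and 3 of 8 at least 2-fold higher, where 12.7% and 4.73% of all genes were, and mean levels of 5.29 and 5.42 on the 0 h arrays of wildtype and YAP-KO and 7.34 and 6.13 on the 24 h arrays. The neutrophil genes Ly6g (-0.63 and 0.09) and Camp (-0.65 and -0.15) were below 0 in wildtype. Macrophage and Kupffer cell markers had medians of 1.65 and 1.58, with 9 and 7 of 13 higher, and mean levels of 7.31, 7.21, 9.40 and 8.80 in that order, and Clec4f of Kupffer cells went against them in YAP-KO (0.00 and -0.70). Stellate cell and fibroblast markers had medians of 0.67 and 0.31 over 12 genes, with 4 and 3 higher, and mean levels of 7.03, 7.22, 7.88 and 7.82 in the same order. Lrat (-1.32 and -0.30), Reln (-0.10 and -0.95) and Lum (0.66 and -0.66) went against that list by 1.5-fold or more in 1 genotype each. Cholangiocyte markers had medians of -0.04 and -0.10 over 5 genes, Sox9 standing apart at 2.53 and 1.47. The part of these shifts in the results above was not tested.

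The only fit with residual error was an additive one of genotype plus time over the 4 arrays (limma, 1 residual degree of freedom). That degree of freedom is the genotype by time interaction. Its errors thus measure how unequal the 24 h differences of the genotypes were, moderated across genes, and not a spread between replicates. It called 0 genes for time and 0 for genotype at an adjusted p under 0.05, or 0% of the 18441, and 2833 (15.4%) and 435 (2.36%) at an unadjusted p under 0.05. For time, 6 of the 10 members were among the 2833. Their limma estimates ran from -6.83 (SE 0.467) for Slc1a2, -5.20 (SE 0.609) for Oat and -5.02 (SE 0.410) for Glul to -1.31 (SE 0.213) for Tbx3, with a lowest adjusted p of 0.284. Rgn and Gulo differed most between genotypes in their 24 h difference, and that inequality is what their larger errors, 1.14 and 0.759, measure.

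For the 6 members whose values spanned 2 log2 units or more, the nearest patterns among 11735 protein-coding genes were found by the root mean square distance over the 4 arrays after each gene was centred on its mean. Oat was nearest to Elovl3, a fatty acid elongase gene (0.27 log2 units), Mme, encoding neprilysin (0.56), and Inmt (0.58), and Slc1a2 to Elovl3 (0.64), Oat (0.83) and Nudt7 (1.10). Glul lay nearest to Rgs16, a regulator gene of G protein signalling (0.67), whose 24 h value was likewise lower in YAP-KO, at 6.16 against 8.68, then Mme (0.73) and Elovl3 (1.05). Rgn was nearest to Tlcd2 (0.28), Aox3 (0.31) and Slco1a1 (0.44), and Gulo to Ido2, Onecut1 (both 0.15) and Haao (0.19). Lgr5 was nearest to Ces2e and Cpeb2 (both 0.10) and Ccs (0.13). The neighbours were picked by these same values, so they share the pattern of their member by construction. For Rgn and Gulo that is the low wildtype 24 h array, and for Oat and Slc1a2 the low 24 h arrays of both genotypes. With 4 points such a distance describes these arrays and nothing more.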

How the data were processed

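Total RNA from 100 mg of liver was extracted with Trizol, labelled with biotin (GeneChip WT Plus) and each array received RNA pooled from 3 mice, per the labels' protocols. The deposited values of 65956 probe sets are log2 values, as inferred from their range of 2.24 to 19.93. The log base, background correction, summarisation and normalization used by the authors are not given in the sources used here. Array number limits the precision.

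Probe sets were named from the supplied platform annotation, with symbols updated to RefSeq (GRCm38.p6): 31261 carried 1 gene, 1489 several and 33206 none. The brightest probe set stood for a gene, and apart from Glul none with several genes was used for a gene. Genes whose mean fell below the 40th percentile (4.32) were dropped. Values within 0.01 of an array's maximum count as saturated, which held for 67 kept genes on all arrays and for 0 members on any. Differences of single arrays were counted at 2-fold. The additive fit used limma 3.58.1 in R 4.3.3 (Benjamini-Hochberg) and was tested on simulated data. In described lists, up to 4 genes with the largest differences and those against the median by 1.5-fold were named, and for members spanning 2 log2 units the 3 nearest genes. Some genes were named for their role after their values were seen. The members and the 18 lists were chosen with earlier results of these data known. Alternatives were quantile normalization, centring, the mean of probe sets, no filter, a 60th percentile filter, a 1.5-fold threshold, a mean-variance trend in limma, the other genotype's 0 h array and, added after the data were seen, leaving out Glul.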

Additional observations from a re-analysis of the deposited data

Results flagged for a closer look

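In the 18 lists, 10 genes differed from 0 h by at least 1.2-fold in opposite directions in the genotypes. The share of all kept genes that met this rule was not counted, so 10 cannot be called many or few. Each genotype has 1 array per time, and the difference was not tested for any of these genes. Lect2 was -0.35 in wildtype and 0.87 in YAP-KO, a difference of 1.22 between the responses. Adh4, an alcohol dehydrogenase gene, was -2.11 and 0.92 (3.03), and Adh5 was -0.87 and 0.50 (1.37). Slc23a1 was -1.47 and 0.34 (1.81). In the other direction, Myc was 3.77 and -0.63 (-4.4), having been 1.53 higher in YAP-KO at 0 h, and Ugdh was 1.17 and -1.25 (-2.42), having been 1.17 higher there. Gsk3b, encoding a kinase that marks beta-catenin for degradation, was 0.53 and -0.32 (-0.85), and the retinoic acid hydroxylase gene Cyp26b1 was 0.27 and -0.34 (-0.61). The marker genes Thbd of endothelium, at 1.53 and -0.53 (-2.06), and Lum of fibroblasts, at 0.66 and -0.66 (-1.32), did so too.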

How the results depend on the processing

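Of 265 differences of single members recomputed under an alternative, 0 reversed and 5 moved by 1.5-fold or more: those of Slc1a2 with the mean of its probe sets (-4.04, -3.21 and 0.83 for the difference of responses) and of Oat against the other 0 h array (-5.57 and -4.82). Most of the 265 could not move by that much. The filters leave a member's values as they are, and the mean of probe sets alters only Slc1a2. Centring shifts all members alike, by 0.15 at most. The wildtype median of the members was -3.08 with the 60th percentile filter, which drops Axin2, and -1.83 without the Glul probe set. Without Glul, 0 members were 2-fold lower at 24 h in YAP-KO against wildtype, and 0 in the difference of responses. In YAP-KO, 1 member, Lect2, was higher at 24 h at a threshold of 1.5-fold and also against the wildtype 0 h array at 2-fold. At 0 h, 1 member, Oat, was lower in YAP-KO at 1.5-fold. The other 99 of 106 summary values stayed within 1.5 times or 1.5-fold. A fall from 6 to 4 members, as in YAP-KO with array medians set equal, still passes that rule. Counts of 0 that stayed 0 are also among the 99. The limma fit called 0 genes under every alternative run. No paired analysis was possible because replicate numbers pair nothing with 1 array per group; the additive fit already compares the times within each genotype. The limits are the 4 pooled arrays, the missing detection level for dim genes (Slc1a2, Lgr5 and Axin2 at 24 h) and the shared probe set of Glul.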

Other observations

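Endothelial markers, the cells that supply Wnt ligands in the lobule, were uneven at 24 h. Of 14 kept, 4 were 2-fold or more higher in wildtype and 2 in YAP-KO, where 12.7% and 4.73% of all genes were, with medians of 0.48 and 0.15. Lyve1, a hyaluronan receptor gene of sinusoidal and lymphatic endothelium, went from 8.06 to 13.57 in wildtype and from 8.80 to 9.69 in YAP-KO, and Cdh5, encoding VE-cadherin, from 9.98 to 13.21 and from 10.02 to 11.72. Thbd, encoding thrombomodulin, went from 6.88 to 8.41 in wildtype and from 7.39 to 6.86 in YAP-KO. Kdr (-0.63 and 0.03), Clec4g (-0.26 and -0.23) and Kit (-0.05 and 0.14) differed by less than 2-fold. Among the periportal genes, Cdh1, encoding E-cadherin, went against its list at 3.74 in wildtype and 0.99 in YAP-KO, as did Hsd17b13, a lipid droplet protein gene, in wildtype (0.61 and 0.02).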
